A study of Homo sapiens with 6 samples.

Results

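The 10 genes described here are structural and marker genes of radial glia, the stem and progenitor cells of the developing forebrain. They are VIM, NES, FABP7, SLC1A3, LIX1, GLI3, CDH2, PROM1, HOPX and TNC, found by gene symbol among the 59151 rows of the expression table. All 10 were in the table, and 9 averaged 1 FPKM or more (fragment counts divided by gene length and by library size) over the 6 libraries; HOPX did not and was left out of the tests below, apart from a fit without that filter.

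The libraries came from forebrain neuron progenitors made from H9 cells, a line of human embryonic stem cells, and collected on day 26. In the first group, labelled circRTN4(2,3) knockdown, the cells carried shRNA2, a hairpin against circRTN4(2,3), a circular RNA of the gene RTN4. In the second, labelled likewise, they carried shRNA1, another hairpin against the same RNA. The third group, labelled WT, carried a scrambled hairpin, so all groups had a hairpin. Each group had 2 libraries of total RNA depleted of ribosomal RNA. Whether the 2 are separate cultures is not in the labels; p-values therefore reflect the spread between libraries, and that spread may be technical. A single cell line was used, and the labels call the cells both forebrain neuron progenitors and forebrain neurons.

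Radial glia stretch from the ventricular surface to the outer surface of the developing brain wall. They divide at the ventricle, produce neurons directly or through intermediate progenitors, and guide new neurons along their fibres. Their fibres are built on the intermediate filaments vimentin and nestin, their ventricular endfeet are held together by N-cadherin, and their descendants include outer radial glia, which have left the ventricle and express HOPX and TNC.

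The totals behind the FPKM values, read from the steps between low values, were 83629504 and 79949303 reads with shRNA2, 82353637 and 78488667 with shRNA1, and 46634855 and 77187298 with scramble. Between replicates, the variance of read numbers was 3.52 times counting error with shRNA2, 1.93 times with shRNA1 and 28.9 times with scramble, as medians over genes of 1000 to 5000 reads. The scramble libraries were thus the least alike, and scramble replicate 1 was the shallowest. The other scramble library, replicate 2, had the largest sum of FPKM over all genes, 2.377e+05, where replicate 1 had 1.842e+05. These sums were 1.835e+05 and 1.793e+05 with shRNA2, and 2.042e+05 and 1.991e+05 with shRNA1. Median-of-ratios scaling, an alternative used below, gave factors between 0.9553 (shRNA2 replicate 2) and 1.042 (scramble replicate 2). The main tests used FPKM without rescaling. Gene-level FPKM mixes linear and circular RNAs, and the circular RNA was not measured on its own. RTN4, its host gene, stood at 31.2 and 31.3 FPKM with shRNA2, 34.2 and 34.7 with shRNA1, and 40.3 and 38.5 with scramble. Like 12.6% of all tested genes, it was lower in every knockdown library than in both scramble libraries. Its differences from scramble did not pass an adjusted p of 0.05 (limma, adjusted p = 0.0756 with shRNA2, 0.419 with shRNA1 and 0.135 for both together).

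Per length, the members ran from the most abundant protein-coding genes to low ones. CDH2 was the highest, at a mean of 59.8 FPKM over the 6 libraries, followed by NES at 51.0 and VIM at 49.4, all 3 above 99% of the 18372 protein-coding genes. Then came FABP7 at 19.2, LIX1 at 13.9, GLI3 at 10.9, SLC1A3 at 5.41, PROM1 at 2.5 and TNC at 1.03 FPKM. HOPX was last at 0.103 FPKM, above 20.9% of protein-coding genes. Of neighbours in this order, NES and VIM overlapped over the 6 libraries and no others did. Only HOPX lay below the filter, and TNC lay just above it.

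With shRNA2 the members divided. VIM, SLC1A3, LIX1 and TNC were lower in both libraries than in both scramble libraries, as were 34.4% of all tested genes, and NES, FABP7 and PROM1 were higher, as were 13.3%. The 4 of 9 that were lower are near the share of all genes. Of these 4, TNC passed the filter of 1 FPKM only through shRNA1 and scramble. With shRNA1 all 9 tested members were lower in both libraries than in both scramble libraries, as were 18.9% of all tested genes; 7 were after median-of-ratios scaling and 6 after quantile normalization. The differences were small, and none of the 9 passed the threshold in any comparison (limma, Benjamini-Hochberg adjusted p under 0.05 over 18162 genes). The share of all tested genes that passed, in either direction, was 0.0826% for both hairpins together against scramble, 0.628% for shRNA2 against scramble, 0.033% for shRNA1 against scramble and 0.0% for shRNA2 against shRNA1. In bulk RNA, fewer cells of a type and less RNA per cell cannot be told apart.

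**Figure D1:**
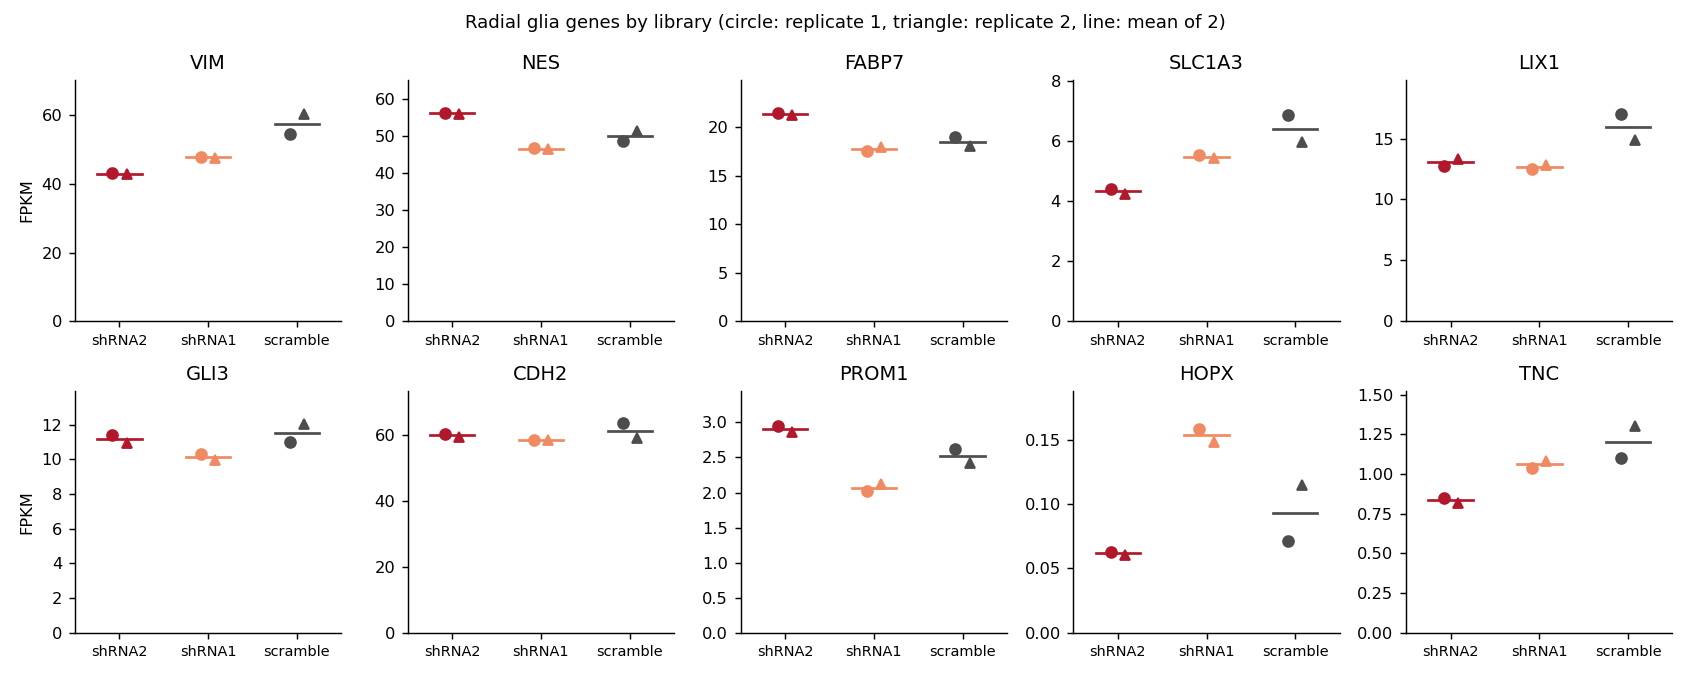
FPKM of each radial glia gene in each library, with shRNA2 and shRNA1 left of scramble; circles are replicate 1, triangles replicate 2, lines the mean of 2, and every axis starts at 0. VIM, SLC1A3, LIX1 and TNC lie below scramble in all 4 knockdown libraries, while NES, FABP7 and PROM1 lie above scramble with shRNA2 and below it with shRNA1.

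The sequences just upstream of 4 members are shown as examples. Without rescaling, VIM and SLC1A3 lay below scramble with both hairpins. NES and FABP7 lay above scramble with shRNA2 and below it with shRNA1. With shRNA1, FABP7 overlapped scramble after either scaling and NES after quantile normalization, and none of these differences passed. Each sequence is the 250 bases before the start in the RefSeq promoter table on build GRCh38.p14, written 5′ to 3′ on the gene's strand. For FABP7 this start lies inside the full span of the gene. Capitals mark matches, on either strand, to 4 motifs. The GC box, searched as GGGCGG, and the CCAAT box, searched under its own letters, are common promoter elements. The SOX core was searched as AACAAT. The core bound by RBPJ, the factor through which Notch acts, was searched as TGGGAA.
VIM (chr10:17227991-17228240, plus strand): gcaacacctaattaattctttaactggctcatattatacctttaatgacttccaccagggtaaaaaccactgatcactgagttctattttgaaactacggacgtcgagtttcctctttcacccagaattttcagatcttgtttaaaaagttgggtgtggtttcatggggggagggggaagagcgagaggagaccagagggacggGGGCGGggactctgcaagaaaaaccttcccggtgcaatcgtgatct
SLC1A3 (chr5:36596338-36596587, plus strand): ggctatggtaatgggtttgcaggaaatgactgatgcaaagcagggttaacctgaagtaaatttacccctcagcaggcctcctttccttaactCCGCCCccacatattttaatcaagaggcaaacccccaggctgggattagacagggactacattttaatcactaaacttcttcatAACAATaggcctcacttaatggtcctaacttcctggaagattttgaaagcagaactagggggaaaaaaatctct
NES (chr1:156677408-156677657, minus strand): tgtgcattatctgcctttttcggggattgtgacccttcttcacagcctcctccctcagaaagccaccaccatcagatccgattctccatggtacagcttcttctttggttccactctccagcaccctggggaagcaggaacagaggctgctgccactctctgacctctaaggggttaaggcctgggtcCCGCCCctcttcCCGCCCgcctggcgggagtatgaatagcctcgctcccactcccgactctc
FABP7 (chr6:122779466-122779715, plus strand): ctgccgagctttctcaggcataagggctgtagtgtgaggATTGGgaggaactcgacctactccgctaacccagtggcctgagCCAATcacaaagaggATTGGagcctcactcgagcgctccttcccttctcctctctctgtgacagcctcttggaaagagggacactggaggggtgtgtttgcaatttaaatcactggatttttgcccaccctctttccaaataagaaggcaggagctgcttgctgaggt
VIM held 1 GC box, SLC1A3 1 GC box and 1 SOX core, NES 2 GC boxes and FABP7 3 CCAAT boxes. Among 27305 such windows in the RefSeq table, 42.3% held a GC box, 33.0% a CCAAT box, 9.19% the SOX core and 21.1% the RBPJ core. The matches are letters only and carry no evidence of binding.

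VIM encodes vimentin, the main intermediate filament of radial glia. Its gene occupies 17228241 to 17237593 on chromosome 10 (RefSeq, GRCh38.p14). Its level was 43.2 and 42.8 FPKM with shRNA2, 48.0 and 47.7 with shRNA1, and 54.6 and 60.3 FPKM with scramble. The 3 groups did not overlap, and shRNA2 was the lowest. The log2 fold change against scramble was -0.41 ± 0.064 (SE) with shRNA2 and -0.26 ± 0.064 with shRNA1, which did not pass (limma, adjusted p = 0.0756 and 0.386). After quantile normalization these values were -0.20 and -0.16. The exons of VIM overlap those of VIM-AS1, an antisense transcript, over 641 bases. Without a stated strand setting their reads cannot be told apart. VIM-AS1 stood at 16.3 and 13.6 FPKM with shRNA2, 17.3 and 17.4 with shRNA1, and 14.7 and 23.8 with scramble, groups that overlapped.

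NES encodes nestin, an intermediate filament protein that assembles together with vimentin. Its gene occupies 156668763 to 156677407 on chromosome 1. Its level was 56.3 and 56.1 FPKM with shRNA2, 46.9 and 46.5 with shRNA1, and 48.6 and 51.4 FPKM with scramble. Both shRNA2 libraries lay above scramble and both shRNA1 libraries below it. Against scramble, the log2 fold change was 0.16 with shRNA2 and -0.10 with shRNA1 (limma, adjusted p = 0.203 and 0.700). They were 0.37 and -0.0095 after quantile normalization, so the value with shRNA1 was then close to 0, and 0.25 with shRNA2 after median-of-ratios scaling. Without scramble replicate 2 the value with shRNA1 was -0.057.

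FABP7 encodes brain lipid-binding protein, a fatty acid carrier of radial glia. The gene spans 122749201 to 122784074 on chromosome 6. FABP7 stood at 21.4 and 21.3 FPKM with shRNA2, 17.5 and 17.9 with shRNA1, and 19.0 and 18.0 FPKM with scramble. As for NES, shRNA2 was highest, and shRNA1 lay below scramble by a small margin. Relative to scramble its log2 fold change was 0.20 ± 0.050 with shRNA2 and -0.06 with shRNA1 (limma, adjusted p = 0.149 and 0.847). Quantile normalization gave 0.36 and -0.0048. With shRNA1 it was -0.024 without scramble replicate 1 and -0.093 without scramble replicate 2.

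SLC1A3 encodes GLAST, the glutamate transporter of radial glia and astrocytes. Its position is chromosome 5, 36596588 to 36688334. SLC1A3 measured 4.41 and 4.26 FPKM with shRNA2, 5.54 and 5.45 with shRNA1, and 6.87 and 5.96 FPKM with scramble. The groups did not overlap, and among the tested members SLC1A3 had the most negative value with shRNA2. The log2 fold change was -0.47 ± 0.073 with shRNA2 and -0.19 with shRNA1 (limma, adjusted p = 0.0756 and 0.549). Without scramble replicate 1 the value with shRNA1 was -0.10.

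LIX1, a marker gene of radial glia, covers 97091867 to 97142611 on chromosome 5. LIX1 stood at 12.8 and 13.4 FPKM with shRNA2, 12.5 and 12.8 with shRNA1, and 17.0 and 14.9 FPKM with scramble. The hairpins overlapped each other and both lay below scramble. Against scramble, the log2 fold change was -0.27 with shRNA2 and -0.31 with shRNA1 (limma, adjusted p = 0.168 and 0.381). The value with shRNA2 was -0.12 after quantile normalization and -0.17 without scramble replicate 1.

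GLI3 encodes a transcription factor of the Hedgehog pathway that acts largely as a repressor and is needed for dorsal forebrain patterning. On chromosome 7 it runs over 41960949 to 42264268. GLI3 measured 11.4 and 10.9 FPKM with shRNA2, 10.3 and 9.95 with shRNA1, and 11.0 and 12.0 FPKM with scramble. Only shRNA1 lay apart from scramble. Relative to scramble its log2 fold change was -0.04 ± 0.062 with shRNA2 and -0.16 with shRNA1 (limma, adjusted p = 0.784 and 0.543). The value with shRNA2 was 0.04 after median-of-ratios scaling, 0.11 after quantile normalization and 0.02 without scramble replicate 2, so it has no stable direction. With shRNA1 it was -0.10 without scramble replicate 2.

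CDH2 encodes N-cadherin, which joins the ventricular endfeet of radial glia. On chromosome 18 it covers 27932879 to 28177130. CDH2 stood at 60.3 and 59.4 FPKM with shRNA2, 58.3 and 58.5 with shRNA1, and 63.5 and 59.1 FPKM with scramble. The shRNA2 libraries fell between the scramble libraries. The log2 fold change was -0.03 ± 0.058 with shRNA2 and -0.07 ± 0.058 with shRNA1 (limma, adjusted p = 0.789 and 0.850). After quantile normalization these values were 0.17 and 0.03, and after median-of-ratios scaling the value with shRNA2 was 0.05.

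PROM1 encodes prominin-1 (CD133), a membrane protein of the apical protrusions and cilia of neural progenitors that is also found on other stem cells. The locus is 15968228 to 16084023 on chromosome 4. Its level was 2.95 and 2.86 FPKM with shRNA2, 2.02 and 2.13 with shRNA1, and 2.62 and 2.42 FPKM with scramble. The groups did not overlap, with shRNA2 highest and shRNA1 lowest. Against scramble, the log2 fold change was 0.15 with shRNA2 and -0.20 with shRNA1 (limma, adjusted p = 0.268 and 0.459).

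HOPX encodes a small homeodomain-only protein and marks outer radial glia. The locus, also on chromosome 4, is 56647998 to 56681706. HOPX stood at 0.0627 and 0.0608 FPKM with shRNA2, 0.158 and 0.148 with shRNA1, and 0.0713 and 0.115 FPKM with scramble. Every shRNA1 library was above scramble and every shRNA2 library below it. These levels stand for about 41 and 38 reads with shRNA2, 101 and 90 with shRNA1, and 26 and 69 with scramble, on exon lengths of GENCODE v29; counting error alone was 19.6% at the lowest. When genes of all levels were fitted, HOPX did not pass between the hairpins (log2 fold change -0.12, limma, adjusted p = 0.320). Adding 1 FPKM before the logarithm strongly shrinks differences at this level. That fit could therefore hardly show a difference and does not decide whether there was one.

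TNC encodes tenascin-C, a matrix glycoprotein of the outer radial glia niche. Chromosome 9 holds it at 115019575 to 115118157. TNC measured 0.853 and 0.819 FPKM with shRNA2, 1.04 and 1.08 with shRNA1, and 1.10 and 1.30 FPKM with scramble. The 3 groups did not overlap, in the same order as for VIM and SLC1A3. Relative to scramble its log2 fold change was -0.26 with shRNA2 and -0.09 with shRNA1 (limma, adjusted p = 0.172 and 0.825). With a pseudocount of 0.1 they were -0.47 and -0.16. The value with shRNA1 was -0.16 without scramble replicate 1 and -0.03 without scramble replicate 2. TNC passed the filter through shRNA1 and scramble, since both shRNA2 libraries lay under 1 FPKM. These values understate the change of a gene at this level, because 1 FPKM was added before the logarithm.

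For both hairpins combined against scramble, 4 of the 9 tested members were lower in all 4 knockdown libraries than in both scramble libraries, against 12.6% of all tested genes, and 0 were higher, against 5.87%. They were VIM, with a log2 fold change of -0.33 ± 0.056, SLC1A3 at -0.33, LIX1 at -0.29 and TNC at -0.18. None passed (limma, adjusted p = 0.132, 0.163, 0.195 and 0.336). Of these 4, TNC passed the filter only through shRNA1 and scramble. The other 5 values lay between -0.10 for GLI3 and 0.07 for FABP7, and the median of the 9 was -0.10, against -0.03 for all tested genes. Without scramble replicate 1 VIM stood at -0.40, in a fit where the spread came from the hairpin libraries alone. After quantile normalization VIM stood at -0.18, LIX1 overlapped scramble and 3 members remained lower, against 9.10% of all tested genes.

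Each hairpin was then set against scramble alone; the 2 comparisons share the scramble libraries. With shRNA2, 4 members were lower without overlap, against 34.4% of all tested genes, and 3 were higher, against 13.3%. The lower 4 include TNC, which passed the filter only through shRNA1 and scramble. After median-of-ratios scaling the same 4 were lower and the same 3 higher, against 20.3% and 20.8% of all tested genes. After quantile normalization 3 were lower, without LIX1, against 22.4%, and 5 were higher, with GLI3 and CDH2, against 17.8%. With shRNA1, 9 of 9 were lower without overlap, against 18.9% of all tested genes, and 0 were higher, against 15.8%. That count of lower members was 7 after median-of-ratios scaling, where FABP7 and CDH2 overlapped scramble, and 6 after quantile normalization, where NES did as well. The median log2 fold change of the 9 was -0.04 with shRNA2 and -0.16 with shRNA1, against -0.06 and -0.003 for all tested genes. VIM and SLC1A3 with shRNA2 passed when only protein-coding genes were fitted (limma, adjusted p = 0.0287 and 0.0254). In that fit 43 of 10363 genes passed as higher and 331 as lower. With 1 scramble library left out, the spread came from the hairpin libraries alone, so member calls from those fits are not counted.

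**Figure D2:**
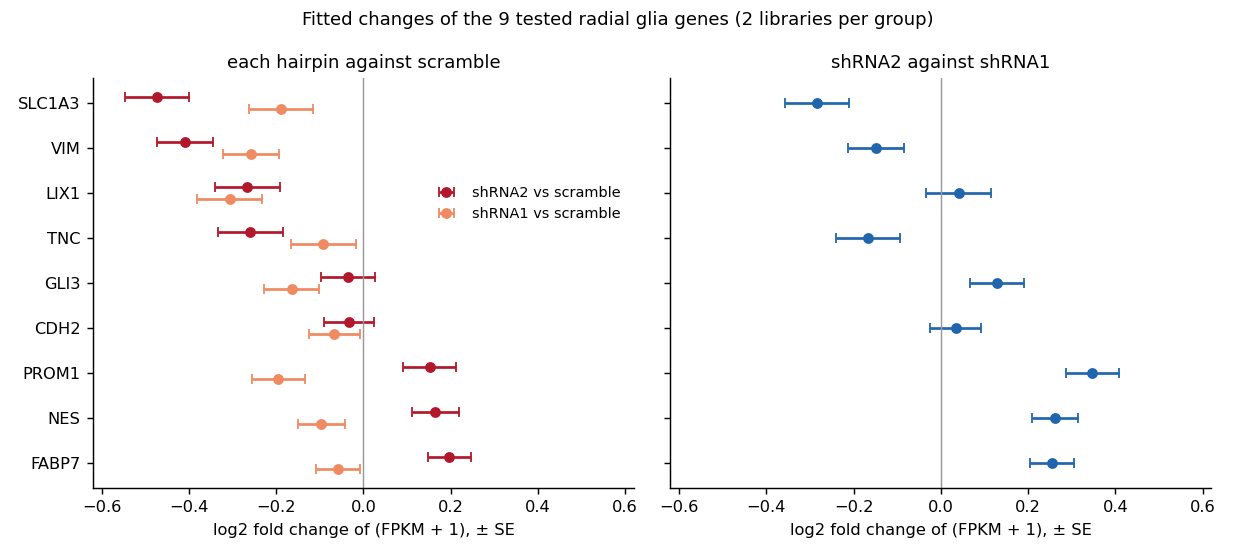
Fitted log2 fold changes of the 9 tested radial glia genes, ± SE from limma, with each hairpin against scramble on the left and shRNA2 against shRNA1 on the right, 2 libraries per group. SLC1A3, VIM, LIX1 and TNC are negative with both hairpins, whereas PROM1, NES and FABP7 are positive with shRNA2 and negative with shRNA1.

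PROM1, SLC1A3, NES and FABP7 were the 4 members with an unadjusted p under 0.05 between the hairpins. For shRNA2 against shRNA1 the log2 fold change was 0.35 ± 0.061 for PROM1, 0.26 ± 0.054 for NES, 0.26 ± 0.050 for FABP7 and -0.28 ± 0.073 for SLC1A3. None passed over all genes, of which 16.1% had an unadjusted p under 0.05 (limma, adjusted p = 0.140, 0.164, 0.154 and 0.202). In all, 5 members were higher without overlap with shRNA2 than with shRNA1, against 16.6% of all tested genes, and 3 were lower, against 46.6%; LIX1 alone overlapped. That contrast with all genes depends on scaling: 6 members, now with LIX1, were higher and 3 lower after either scaling, against 29.1% and 29.7% of all tested genes after median-of-ratios scaling and 26.4% and 32.2% after quantile normalization. The order of the members' differences also depends on the pseudocount: with 0.1 in place of 1, TNC stood at -0.31, past NES at 0.27 and FABP7 at 0.27. TNC, among the 3 lower members, passed the filter only through shRNA1 and scramble. PROM1 passed when only protein-coding genes were fitted (limma, adjusted p = 0.0433), where 38 of 10363 genes passed as higher and 199 as lower. With 1 scramble library left out, the log2 fold changes between the hairpins were the same. The spread then came from the hairpin libraries alone, so member calls from those fits are not counted.

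Ratios of members within a library do not change when all its values are multiplied by a common factor, as in median-of-ratios scaling. Quantile normalization can change them. They were chosen after the values were seen and are given as a description. The ratio of VIM to NES was 0.768 and 0.763 with shRNA2, 1.02 and 1.03 with shRNA1, and 1.12 and 1.17 with scramble. Per length, VIM thus exceeded NES in the shRNA1 and scramble libraries and lay below it with shRNA2. The ratio of SLC1A3 to FABP7 was 0.206 and 0.200 with shRNA2, 0.317 and 0.303 with shRNA1, and 0.362 and 0.331 with scramble. The groups did not overlap in either ratio. TNC over PROM1 was 0.289 and 0.286 with shRNA2, 0.515 and 0.510 with shRNA1, and 0.420 and 0.538 with scramble, so that shRNA1 fell within the scramble range. LIX1 over CDH2 was 0.212 and 0.225 with shRNA2, 0.215 and 0.219 with shRNA1, and 0.268 and 0.252 with scramble, so the hairpins overlapped. GLI3 over CDH2 was 0.189 and 0.184 with shRNA2, 0.177 and 0.170 with shRNA1, and 0.173 and 0.203 with scramble. Scramble thus overlapped both hairpins there. Ratios that differ between groups show unequal change and not which gene of a pair changed.

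**Figure D3:**
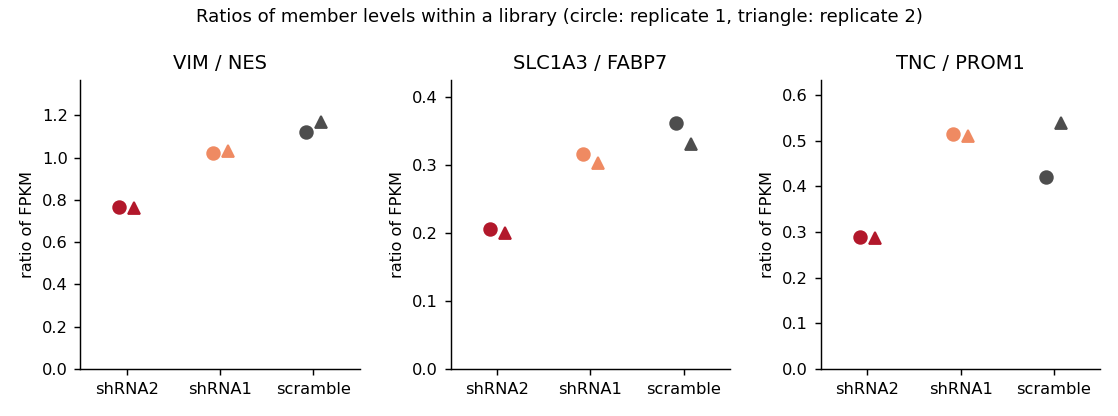
Ratios of FPKM between members within each library, for shRNA2, shRNA1 and scramble from left to right; circles are replicate 1 and triangles replicate 2, and axes start at 0. In the shRNA2 libraries VIM over NES is 0.768 and 0.763, SLC1A3 over FABP7 0.206 and 0.200, and TNC over PROM1 0.289 and 0.286, below every other library.

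Among protein-coding genes averaging 5 FPKM or more, those whose pattern over the 6 libraries was most like that of VIM were MRPL51, a mitochondrial ribosomal protein gene (Pearson's r = 0.999), RPS6, a ribosomal protein gene (0.998), and HSPA8, a constitutive chaperone gene (0.998). They were picked from 3311 genes over 6 libraries that share 3 groups, and r is given as a description.

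Few other genes of the same cells and pathways passed. Of 25 other pan radial glia and neural progenitor genes, 22 were tested and 0 passed in any comparison; 18 of the 22 values were negative for both hairpins together, with a median of -0.12, against -0.03 for all tested genes. DACH1 averaged 3.22 FPKM with shRNA2, 4.07 with shRNA1 and 5.53 with scramble (log2 fold change -0.63 with shRNA2, limma, adjusted p = 0.0563). PAX6, a transcription factor of dorsal progenitors, averaged 2.23 FPKM with shRNA2, 2.45 with shRNA1 and 3.24 with scramble. HES1, a Notch effector that maintains radial glia, averaged 2.92, 3.42 and 4.04 FPKM in the same order. Of 16 outer radial glia genes, 9 were tested. MOXD1, a monooxygenase-like gene, fell with shRNA2 (6.18 FPKM with shRNA2, 8.31 with shRNA1 and 9.15 with scramble; log2 fold change -0.50 with shRNA2, limma, adjusted p = 0.0486) and was the only member of this list to pass. The MOXD1 call did not hold with a replicate block or without the filter, where no gene passed with shRNA2. PTN, a secreted growth factor, averaged 14.4 FPKM with shRNA2, 10.3 with shRNA1 and 10.4 with scramble, without passing. Of 9 ventricular and truncated radial glia genes, 4 were tested and 0 passed.

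Among partners of the single members, 0 of 8 tested intermediate filament genes passed. The same held for 0 of 20 cadherin, catenin and apical junction genes, where CDH11 averaged 2.31 FPKM with shRNA2, 2.65 with shRNA1 and 3.14 with scramble. Of 10 tested Hedgehog pathway genes, 0 passed. CDON, a Hedgehog co-receptor, averaged 11.2 FPKM with shRNA2, 7.96 with shRNA1 and 8.40 with scramble (log2 fold change 0.38 with shRNA2, limma, adjusted p = 0.064). Of 9 tested fatty acid binding protein and glutamate handling genes, 0 passed. All 9 values were negative with shRNA2, with a median of -0.15, against -0.06 for all tested genes. FABP5, a related fatty acid carrier, averaged 3.60 FPKM with shRNA2, 5.16 with shRNA1 and 5.53 with scramble, whereas FABP7 itself was highest with shRNA2. Of 8 tested prominin, cilium and midbody genes, 0 passed. Of 12 tested tenascin partners and matrix genes, RELN, the secreted glycoprotein reelin, fell with shRNA2 (5.91 FPKM with shRNA2, 9.34 with shRNA1 and 8.05 with scramble; log2 fold change -0.39 with shRNA2, limma, adjusted p = 0.0499), and 0 others passed. With any single hairpin library left out, at most 1 gene in all passed with shRNA2, and with a replicate block or without the filter 0 did. VCAN, the matrix proteoglycan versican, averaged 76.9 FPKM with shRNA2, 95.4 with shRNA1 and 102 with scramble.

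**Figure D4:**
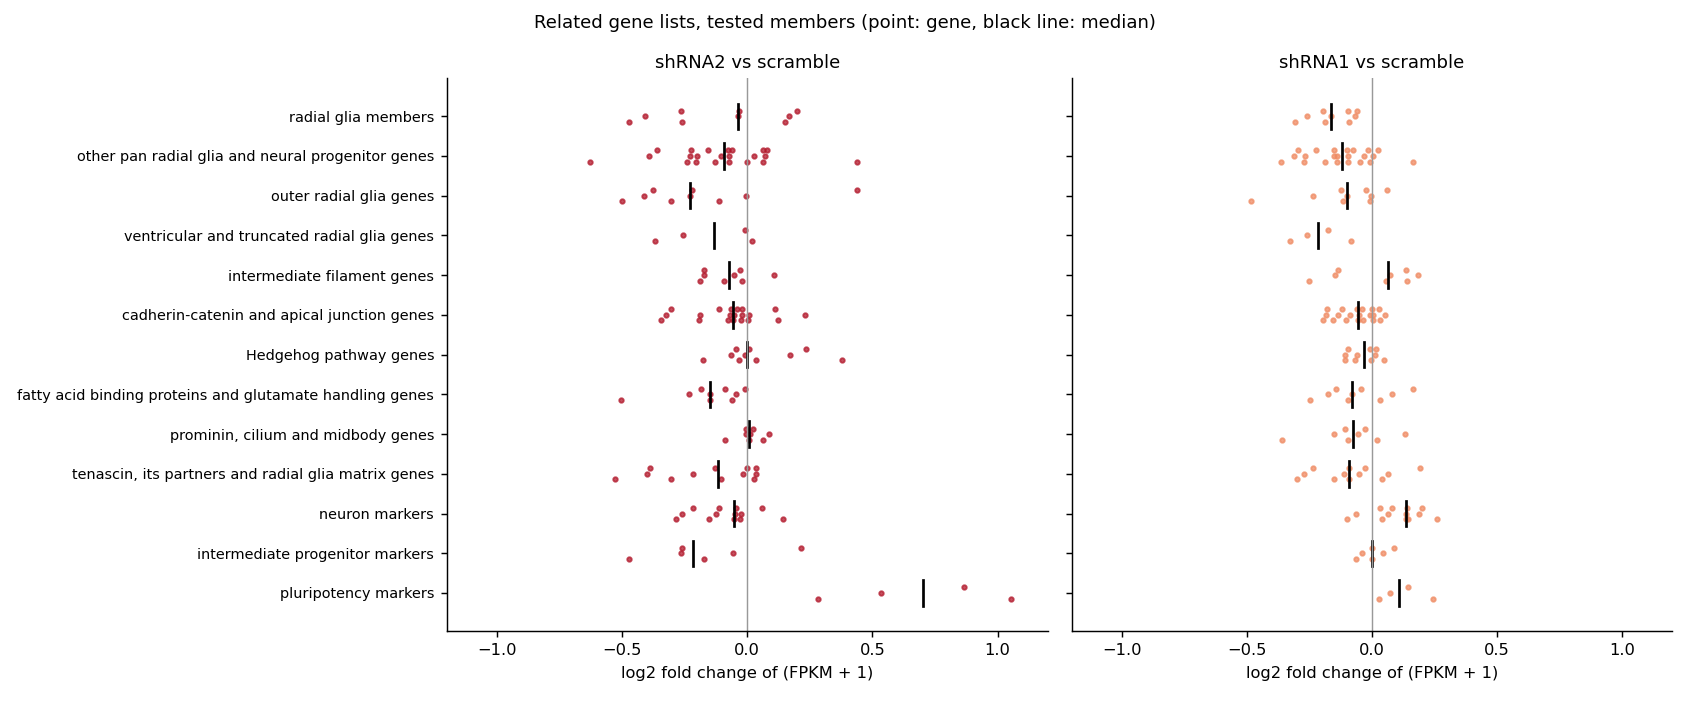
Log2 fold changes of the tested genes of each related list with at least 4 tested genes, for shRNA2 against scramble on the left and shRNA1 against scramble on the right; points are genes and black lines medians. The radial glia members have a median of -0.04 with shRNA2 and -0.16 with shRNA1, and the pluripotency markers one of 0.70 with shRNA2.

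Markers of other cell types were set beside the members, and their part in the members' values was not tested. The summed level of 14 neuron markers was 484 and 481 FPKM with shRNA2, 558 and 562 with shRNA1, and 532 and 526 with scramble, so neuronal RNA was abundant in every library. None of the 13 tested passed. With shRNA2 11 values were negative, with a median of -0.05, near the -0.06 of all tested genes. With shRNA1 11 were positive, with a median of 0.13, against -0.003 for all tested genes. Of 10 intermediate progenitor markers, summing to 25.7 and 23.4 FPKM with shRNA2, 28.5 and 28.9 with shRNA1, and 27.6 and 31.8 with scramble, 6 were tested and 0 passed.

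The 10 pluripotency markers summed to 22.4 and 22.1 FPKM with shRNA2, 13.5 and 13.5 with shRNA1, and 12.1 and 12.4 with scramble. With shRNA2 the sums lay on the same side of scramble as NES, FABP7 and PROM1. With shRNA1 the sums were also above scramble, whereas NES, FABP7 and PROM1 lay below it. LIN28A, DPPA4 and SALL4 rose with shRNA2 (log2 fold changes 1.05, 0.87 and 0.54, limma, adjusted p = 0.0244, 0.0353 and 0.0486), calls that did not hold with a replicate block or without the filter, where 0 genes passed with shRNA2, while POU5F1, NANOG, ZFP42 and UTF1 were under 0.1 FPKM in every library. The 12 choroid plexus and roof plate markers summed to 4.70 and 4.50 FPKM with shRNA2, 5.34 and 5.60 with shRNA1, and 17.2 and 19.4 with scramble. Only 3 of the 12 passed the filter. RSPO2 averaged 1.19 FPKM with shRNA2, 1.62 with shRNA1 and 5.98 with scramble, and TTR 0.0605, 0.641 and 6.33 FPKM in the same order. Both were called lower with each hairpin, but TTR passed the filter only through scramble, where it is high. With shRNA1, 0 genes passed with a replicate block, without the filter, without scramble replicate 2 or without any single hairpin library, so these calls were lost there. The 12 mesenchymal markers, cells that also express VIM, summed to 3.90 and 3.41 FPKM with shRNA2, 4.27 and 4.28 with shRNA1, and 9.11 and 10.7 with scramble; 10 of the 12 did not pass the filter. COL3A1, at 0.0625 FPKM with shRNA2, 0.507 with shRNA1 and 3.33 with scramble, was called lower with each hairpin but passed the filter only through scramble, and its calls were lost in the same settings with shRNA1. Of 12 astrocyte and oligodendrocyte lineage markers, summing to 4.44 to 5.35 FPKM, 2 were tested and 0 passed, and AQP4, ALDH1L1, GFAP and AGT were under 0.1 FPKM in every library. The 11 neural crest, endothelial and microglia markers summed to 0.535 and 0.541 FPKM with shRNA2, 0.515 and 0.520 with shRNA1, and 0.758 and 0.708 with scramble, with 0 above the filter.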

How the data were processed

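Total RNA of 6 libraries in 3 groups of 2 was measured. Per the file headers, the authors deposited FPKM for each gene symbol in each library. The submitters' processing notes name build GRCh38 (hg38) and the tools featureCounts 2.0.1, HISAT2 2.1.0, Trimmomatic 0.39 and SAMtools 1.9. The sources used here give neither the annotation nor the strand setting.

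The 18162 genes averaging 1 FPKM or more were tested on log2(FPKM + 1), not rescaled. A single limma model (version 3.58.1, R 4.3.3) covered the 3 groups and used a trend of variance with mean. Its p-values were adjusted by Benjamini-Hochberg over all these genes. It was also run on simulated data in which every library had the spread of the hairpin libraries. The changes planted there were larger than those of the members. That run therefore does not cover the wider spread of scramble or changes as small as the members'. Fold changes on this scale understate changes of low genes. The groups share 1 estimate of the spread per gene.

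Library totals were recovered from single-exon genes of GENCODE v29, where FPKM times length is a multiple of what 1 read is worth; 1 read on 1 kb is worth 0.012 to 0.0214 FPKM. Read numbers of members are approximate and cover counting error only. Types and positions came from RefSeq; 33609 of 59151 symbols matched, 3 list genes through older symbols. Python 3.11.15, pandas 2.3.3 and matplotlib 3.10.9 were used.

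All 10 members were named; of other lists, up to 4 genes with the smallest p for both hairpins together, any gene that passed, and the 3 genes most like VIM could be named. Members and lists were chosen with earlier results of these data known. Alternatives were other pseudocounts, filters, scalings and limma settings, protein-coding genes alone, a replicate block and each library left out.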

Additional observations from a re-analysis of the deposited data

Results flagged for a closer look

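HOPX was picked out by a rule for opposite directions with the hairpins, applied only to members outside the tests. Its mean was 0.0601 FPKM above scramble with shRNA1 and -0.0315 FPKM from it with shRNA2, and every hairpin library lay on that side. The trait is not particular to HOPX. Without rescaling, NES, FABP7 and PROM1 also lay on opposite sides of scramble, higher with shRNA2 and lower with shRNA1. HOPX lay below the filter of 1 FPKM, so its difference was not tested in the comparisons above. In a fit of genes of all levels, HOPX did not differ past the threshold between the hairpins (limma, adjusted p = 0.320). Because 1 FPKM was added to values far below it, that fit could hardly show a difference and does not decide the question. The library with the fewest HOPX reads, scramble replicate 1, held about 26 and was also the shallowest.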

How the results depend on the processing

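Of the 9 tested members 0 passed in each comparison, and that count also held with a pseudocount of 0.1 or 0.5, no filter, either scaling, no trend, robust estimation and the replicate block. For shRNA2 against scramble it was 2 among genes averaging 5 FPKM or more and 2 among protein-coding genes alone; for shRNA2 against shRNA1 it was 1 among protein-coding genes. Fewer genes were tested in these fits, and more passed over all genes, as counted below. Member calls from fits with 1 library left out are not counted. With 1 scramble library left, it is assumed to vary like the hairpin libraries.

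Directions of VIM, SLC1A3, LIX1 and FABP7 held in all 16 alternatives and 4 comparisons, and that of TNC in the 15 that included it. For both hairpins against scramble, CDH2 reversed to 0.10 after quantile normalization, PROM1 to 0.011 after median-of-ratios scaling, and leaving out single libraries gave -0.10 to 0.00051 for CDH2, -0.063 to 0.020 for PROM1 and -0.0057 to 0.074 for NES, each reversed without scramble replicate 1. With shRNA1, CDH2 reversed to 0.034 after quantile normalization. With shRNA2, GLI3 reversed to 0.043 and CDH2 to 0.052 after median-of-ratios scaling, and to 0.11 and 0.17 after quantile normalization; leaving out single libraries gave -0.096 to 0.024 for GLI3, reversed without scramble replicate 2, and -0.084 to 0.018 for CDH2, reversed without scramble replicate 1. The cause was not tested.

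Replicates share numbers but the labels give no pairing; deviations of same-numbered libraries correlated at 0.01, -0.15 and -0.01 between groups. With the replicate block, 0 genes rose and 1 fell for both hairpins together, against 1 and 14 without it, and 0 were called with shRNA2, against 34 higher and 80 lower. Over all genes, calls for both hairpins together were 10 higher and 18 lower after median-of-ratios scaling, 12 and 18 after quantile normalization, 11 and 24 among genes averaging 5 FPKM or more, 27 and 74 among protein-coding genes, and 76 and 431 without scramble replicate 1; they were 0 and 1 without scramble replicate 2 or either shRNA1 library, and 0 and 0 without either shRNA2 library. With shRNA1 they were 0 and 6, against 4 and 18 among protein-coding genes, 0 and 2 with a pseudocount of 0.1, 0 and 3 among genes averaging 5 FPKM or more, 0 and 1 without scramble replicate 1, and 0 and 0 with the replicate block, without scramble replicate 2 or without any single hairpin library. No gene passed in any comparison against scramble without the filter (limma). With shRNA2, calls were 36 higher and 225 lower among genes averaging 5 FPKM or more, 12 and 23 with no trend, 13 and 35 with robust estimation, 43 higher and 331 lower among protein-coding genes, 37 and 34 after quantile normalization, 43 and 48 after median-of-ratios scaling, 321 and 2097 without scramble replicate 1, and 140 and 394 without scramble replicate 2. No gene passed between the hairpins (limma), though 2929 (16.1%) had an unadjusted p under 0.05; 38 were higher and 199 lower among protein-coding genes.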
